A study of Homo sapiens with 8 samples.

Results

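The genes described here build and run the mitotic spindle: 54 genes for mitotic kinases and phosphatases, kinetochore and centromere proteins, the spindle checkpoint, condensin, the anaphase machinery and cytokinesis. They were chosen by symbol, and each was found once among the 25945 genes of the deposited table. The RNA came from MiaPaCa-2 cells, a long-established line from a human pancreatic carcinoma whose genotype the labels give as WT. Cells received either SCR siRNA, a scrambled control, or siRNA against BARD1 and were harvested after 48 h, with 4 libraries per group numbered 1 to 4. The labels name no second BARD1 siRNA and no untreated cells, so each group is taken as 1 siRNA treatment in 1 line. Whether the libraries stem from separate cultures is not stated, so a p-value here reflects the scatter of these libraries alone, which may be technical.

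When a cell enters mitosis, CDK1, PLK1 and the Aurora kinases drive chromosome condensation and spindle assembly, kinetochores tie each centromere to microtubules, and a checkpoint holds back anaphase until all are attached. Most of these genes are transcribed late in the cell cycle. Their promoters are held off by the DREAM complex in resting cells and driven by B-MYB and FOXM1 in dividing cells, through an element called the cell cycle genes homology region (CHR) that often lies near CCAAT boxes. BARD1 pairs with BRCA1 to form a ubiquitin ligase of DNA repair, and its loss in a pancreatic cancer line was the study's subject.

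Promoter sequences show what many members share. RefSeq (GRCh38.p14) gave a window of 250 bases before to 50 bases after the start for 44 members. PBK, TTK, TPX2, RACGAP1, BUB3, AURKA, FOXM1, BIRC5, UBE2C and CDCA2 had no entry in that table. The words searched on both strands were TTTGAA and TTCGAA, core forms of the CHR, and CCAAT. Of the 44 windows, 31 held a CHR word (70.5%), against 13.5% of 15843 windows of protein-coding genes. Within 50 bases of the start the word stood in 24 of 44 (54.5%), against 3.65% of all. CCAAT stood in 29 (65.9% against 36.4%), at least 2 copies of it in 20 (45.5% against 12.5%), and both words in 23 (52.3% against 5.57%). These matches are letters in a window, not measured sites. Only the first window listed for each gene was searched, so words at any other start would be missed. The 5 windows shown serve to compare makeups of the promoter, not to rank the members: CENPA and PLK1 hold both words, SPC24 holds CCAAT alone, its partner SPC25 holds both, and CDC25B holds neither. Capitals mark either word or its reverse complement.
CENPA, chr2:26785806-26786105, plus strand: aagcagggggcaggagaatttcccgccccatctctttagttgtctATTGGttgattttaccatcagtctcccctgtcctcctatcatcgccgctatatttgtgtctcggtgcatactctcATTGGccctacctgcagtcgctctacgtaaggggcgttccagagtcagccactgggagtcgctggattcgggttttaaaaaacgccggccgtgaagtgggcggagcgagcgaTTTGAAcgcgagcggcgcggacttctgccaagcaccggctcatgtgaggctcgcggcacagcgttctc
PLK1, chr16:23678639-23678938, plus strand: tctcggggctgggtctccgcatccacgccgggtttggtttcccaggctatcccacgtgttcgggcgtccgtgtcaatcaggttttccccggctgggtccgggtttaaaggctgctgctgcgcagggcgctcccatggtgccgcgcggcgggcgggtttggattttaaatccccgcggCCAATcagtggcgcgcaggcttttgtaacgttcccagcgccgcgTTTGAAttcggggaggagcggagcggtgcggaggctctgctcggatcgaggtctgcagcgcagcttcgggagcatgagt
SPC24, chr19:11155733-11156032, minus strand: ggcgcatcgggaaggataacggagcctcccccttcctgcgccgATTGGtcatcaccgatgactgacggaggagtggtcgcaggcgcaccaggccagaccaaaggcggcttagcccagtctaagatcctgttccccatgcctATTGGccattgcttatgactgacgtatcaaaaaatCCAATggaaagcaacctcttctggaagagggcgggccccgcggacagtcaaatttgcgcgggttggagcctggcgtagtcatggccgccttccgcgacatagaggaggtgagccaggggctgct
SPC25, chr2:168890381-168890680, minus strand: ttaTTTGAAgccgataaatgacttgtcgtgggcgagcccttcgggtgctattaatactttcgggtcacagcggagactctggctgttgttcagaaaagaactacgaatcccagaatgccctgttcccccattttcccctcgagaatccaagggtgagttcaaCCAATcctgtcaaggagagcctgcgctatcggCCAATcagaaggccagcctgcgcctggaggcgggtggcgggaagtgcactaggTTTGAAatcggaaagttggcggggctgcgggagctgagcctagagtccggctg
CDC25B, chr20:3786701-3787000, plus strand: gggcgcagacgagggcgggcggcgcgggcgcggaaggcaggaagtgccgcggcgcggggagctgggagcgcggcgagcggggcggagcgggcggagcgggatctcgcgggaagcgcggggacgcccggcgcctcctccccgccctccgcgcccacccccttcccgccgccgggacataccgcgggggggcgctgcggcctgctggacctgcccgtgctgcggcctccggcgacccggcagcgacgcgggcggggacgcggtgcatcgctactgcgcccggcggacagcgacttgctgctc

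Total gene counts ran from 24458665 to 36212716 per library, and 14528 genes, all 54 members among them, had enough counts to be tested. At this depth 3 counts, the floor used here, are worth 0.0828 to 0.1227 CPM (counts per 1e+06 counts of a library, after scaling), far below any member. BARD1 itself (ENSG00000138376, GRCh37 chromosome 2, 215590370 to 215674428) stood at 26.9, 28.0, 26.9 and 20.8 CPM in control libraries 1 to 4 and at 3.56, 2.24, 2.45 and 7.59 CPM in BARD1 siRNA libraries 1 to 4. The groups did not overlap, and the library numbered 4 kept the most BARD1 mRNA. The log2 fold change was -2.69 (SE 0.36, edgeR quasi-likelihood adjusted p = 0.00397), and a two-sided exact permutation test of the 8 values returned its lowest possible p, 0.0286. As for the line's identity, the epithelial markers KRT8, KRT18, KRT19 and MUC1 were tested and EPCAM was at or below the floor. KRT7 was above the floor but not tested. The epithelial list summed to 2379 to 3168 CPM in control libraries and 2965 to 4559 CPM in BARD1 siRNA libraries, ranges that overlap. Of the 5 fibroblast markers COL1A1 and COL1A2 were tested, and LUM and PDGFRA were at or below the floor. DCN was above the floor but not tested. The fibroblast list summed to 624 to 1149 CPM in the control group and 427 to 1220 CPM in the BARD1 siRNA group. CD68, the only leukocyte marker in the table, reached at most 0.0363 CPM. The endothelial list summed to 3.59 to 5.07 CPM in control libraries and 6.61 to 10.9 CPM in BARD1 siRNA libraries, ranges that did not overlap. Of this list CDH5 was tested, VWF was above the floor but not tested, and PECAM1 was not in the table. The part of these lists in the results was not tested.

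Most of these transcripts had moderately lower levels in cells given BARD1 siRNA, and the median of every role was below 0 on the log2 scale. The libraries numbered 4 stood apart from the rest in both groups, and the number of members past the threshold depended on how they were treated. Of the 54 members, 52 had a negative log2 fold change, against 48.4% of all genes tested. The median over the members was -0.42 (quartiles -0.52 and -0.30), against 0.01 over all genes tested. Without further terms in the model, AURKA, CDC25C, CENPA, SPC24 and TACC3 fell and 0 rose, beside a background of 3.22% of all genes lower. A further count, at an unadjusted p under 0.05, took in 34 members and 2745 of all genes. With the replicate number as a block, 49 members fell and 0 rose, beside a background of 12.6% lower. The same backgrounds, 3.22% without the block and 12.6% with it, apply to the counts by role below. Without both libraries numbered 4, 48 fell, beside a background of 15.4% lower. Of the members, 14 were lower and 0 higher at an adjusted p under 0.05 in the authors' deposited table, beside a background of 5.37% lower. In bulk RNA, fewer cells in mitosis and less of each transcript per cell cannot be told apart.

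The summed level of the 54 members was 12297, 12823, 12798 and 9026 CPM in control libraries 1 to 4 and 9655, 10336, 9615 and 5858 CPM in BARD1 siRNA libraries 1 to 4. Control library 4 lay below all 3 BARD1 siRNA libraries numbered 1 to 3, so the groups overlapped, while libraries 1 to 3 of each group stood close together. The group means were 11736 ± 1823 and 8866 ± 2033 CPM (SD, n = 4 each). Among single members, all 4 BARD1 siRNA libraries lay below all 4 controls in 14, beside 7.52% of all genes. In libraries 1 to 3 the BARD1 siRNA values lay below the control values in 49, beside 21.2% of all genes.

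**Figure D1:**
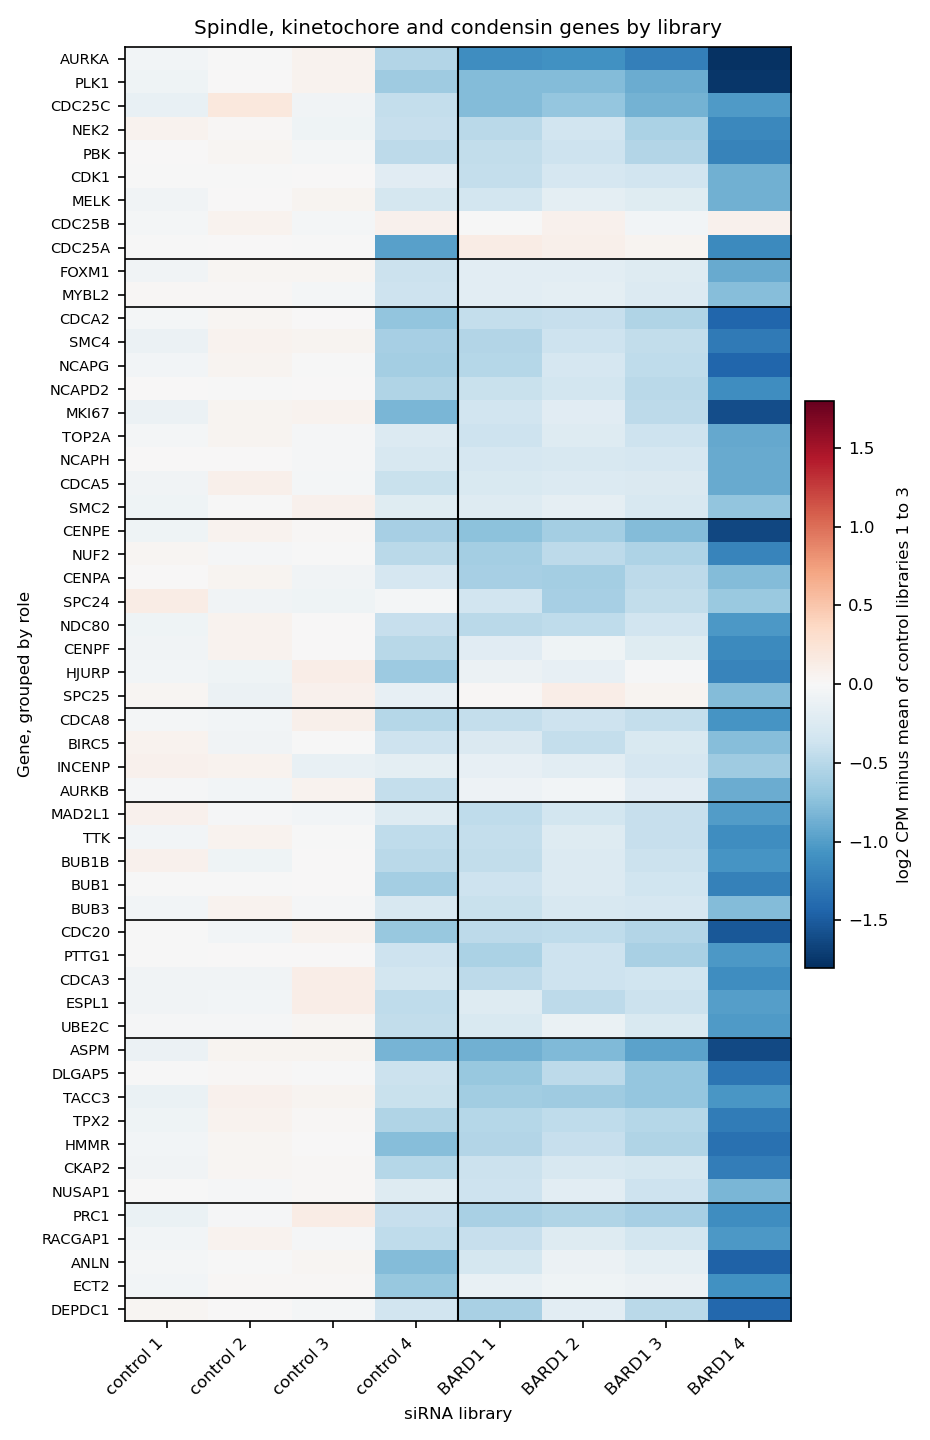
Levels of the 54 members in the 8 libraries, by role (rows) and library (columns); colour gives log2 CPM minus the gene's mean over control libraries 1 to 3, on a scale of ±1.8. BARD1 siRNA libraries 1 to 3 are below control libraries 1 to 3 in nearly all rows, and within each group library 4 is lower than the other 3 in nearly all rows, while CDC25B stays flat.

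The genes that start mitosis held the largest difference. AURKA (ENSG00000087586, GRCh37 chromosome 20, 54944445 to 54967393) encodes Aurora A, the kinase that matures centrosomes and activates PLK1. It stood at 211, 216, 226 and 151 CPM in control libraries 1 to 4 and at 100.5, 102, 92.4 and 63.1 CPM in BARD1 siRNA libraries 1 to 4. The groups did not overlap, although control library 4 was well below the other controls. AURKA fell 2.24-fold, from 201 ± 33.9 to 89.6 ± 18.2 CPM (SD, n = 4), with a log2 fold change of -1.17 (SE 0.17, edgeR adjusted p = 0.0066). It was the only member at least 2-fold lower, and it passed the threshold in each of the 8 fits that left out 1 library. In the authors' deposited table it had a log2 fold change of -1.002 (adjusted p = 6.36e-08).

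CDC25C (ENSG00000158402, GRCh37 chromosome 5, 137620954 to 137674044) encodes a phosphatase that removes the inhibitory phosphates of CDK1. Its levels were 31.1, 39.1, 32.8 and 25.3 CPM in the controls and 19.8, 21.2, 19.0 and 16.9 CPM with BARD1 siRNA. Every BARD1 siRNA library was below every control, and CDC25C fell by 0.74 on the log2 scale (SE 0.14, edgeR adjusted p = 0.018). FAM53C overlaps it on the opposite strand by 6421 bases at 91.0 CPM, above CDC25C itself. FAM53C had a log2 fold change of 0.27 (adjusted p = 0.112), and whether reads were counted by strand is not given. PLK1, the polo kinase of centrosomes, kinetochores and cytokinesis, stood at 267, 284, 294 and 180 CPM in the controls and at 164, 163, 151 and 83.6 CPM with BARD1 siRNA. The groups did not overlap, and library 4 was the lowest of each. Its log2 fold change was -0.87 (SE 0.22), which missed the threshold without the block (adjusted p = 0.0567) and passed with it (adjusted p = 1.21e-06).

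The other 2 CDC25 phosphatases behaved otherwise. CDC25B, which starts CDK1 activation at the centrosome, was at 315, 337, 314 and 341 CPM in the controls and at 322, 340, 310 and 341 CPM with BARD1 siRNA. All 8 libraries lay within a narrow band, those numbered 4 included. The fold change was 0.01 on the log2 scale (SE 0.07, adjusted p = 0.982). CDC25A, which also acts at the start of S phase, was at 74.8, 75.7, 74.7 and 38.1 CPM in the controls and at 82.0, 80.1, 77.5 and 33.8 CPM with BARD1 siRNA. Here the libraries numbered 1 to 3 were close and slightly higher with BARD1 siRNA, and both libraries numbered 4 were far below. CDC25A had a log2 fold change of 0.06 (SE 0.30, adjusted p = 0.959). Of the 9 entry kinases and phosphatases, 2 fell without the block and 7 with it, and the median log2 fold change was -0.50. The other 4 were CDK1 at -0.42, NEK2 at -0.51, PBK at -0.50 and MELK at -0.30, and each fell with the block.

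**Figure D2:**
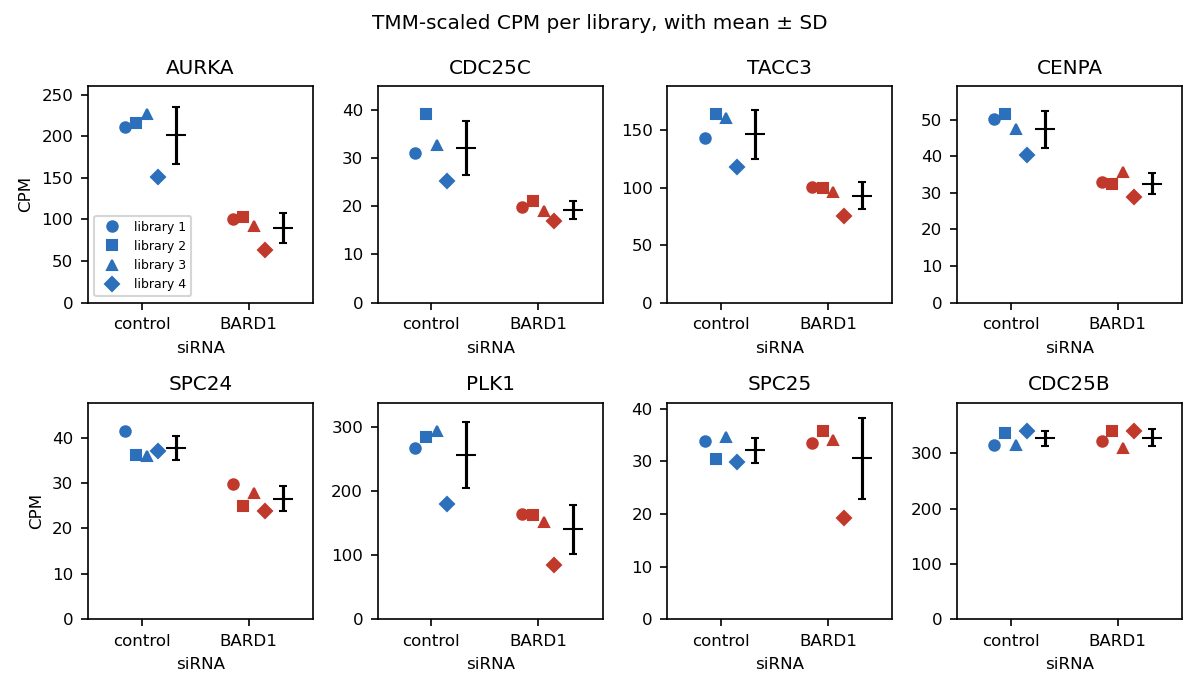
CPM in each library for members of different roles; marker shapes give the replicate number, and the bars the mean ± SD of 4 libraries. AURKA, CDC25C, CENPA, SPC24 and TACC3 separate the groups, and CDC25B does not move.

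Of the transcription factors, MYBL2, which encodes B-MYB, was at 531, 533, 513 and 405 CPM in the controls and at 462, 465, 443 and 308 CPM with BARD1 siRNA. Control library 4 was below all BARD1 siRNA libraries 1 to 3. Its log2 fold change was -0.24 (SE 0.15, adjusted p = 0.44), and it fell with the block (adjusted p = 0.00369). FOXM1, the forkhead factor that drives many of the other members, had a log2 fold change of -0.26 and also fell with the block. RHNO1 overlaps FOXM1 on the opposite strand and was at -0.39 (adjusted p = 0.0555).

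Condensin winds chromatin into mitotic chromosomes, and TOP2A, DNA topoisomerase II alpha, unlinks the sister DNAs. TOP2A was at 1037, 1103, 1052 and 899 CPM in the controls and at 821, 908, 823 and 559 CPM with BARD1 siRNA. Control library 4 overlapped BARD1 siRNA library 2, and the rest of the groups were apart. The log2 fold change was -0.40 (SE 0.14, adjusted p = 0.165). None of the 9 genes of condensin and chromosome structure passed without the block, beside a background of 3.22% of all genes lower. All 9 fell with the block, beside a background of 12.6% lower. Their log2 fold changes were close to each other, from -0.50 for CDCA2 to -0.28 for SMC2, with a median of -0.40. SMC2 and SMC4, the paired ATPases of condensin, were at -0.28 and -0.49, and the condensin I subunits NCAPD2, NCAPG and NCAPH were at -0.43, -0.48 and -0.36.

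Kinetochore genes were less uniform. CENPA (ENSG00000115163, GRCh37 chromosome 2, 26987157 to 27023935) encodes the histone H3 variant that marks the centromere. It was at 50.1, 51.4, 47.5 and 40.3 CPM in the controls and at 32.9, 32.3, 35.7 and 28.8 CPM with BARD1 siRNA. No library of the 2 groups overlapped, and CENPA fell by 0.54 on the log2 scale (SE 0.10, edgeR adjusted p = 0.0196). SLC35F6 overlaps it on the same strand by 16943 bases at 67.6 CPM, and had a log2 fold change of 0.14 (adjusted p = 0.571). SPC24 and SPC25 encode the pair that anchors the NDC80 complex to the inner kinetochore, opposite the end that binds microtubules. SPC24 (ENSG00000161888, GRCh37 chromosome 19, 11242196 to 11266484) was at 41.6, 36.2, 35.99 and 37.1 CPM in the controls and at 29.7, 25.03, 27.9 and 23.8 CPM with BARD1 siRNA. All controls lay above all BARD1 siRNA libraries, and control library 4 did not stand apart. SPC24 fell by 0.50 on the log2 scale (SE 0.10, adjusted p = 0.0215). SPC25 was at 33.8, 30.4, 34.5 and 29.8 CPM in the controls and at 33.5, 35.8, 34.1 and 19.1 CPM with BARD1 siRNA. Apart from BARD1 siRNA library 4 its values overlapped in part, with a log2 fold change of -0.07 (SE 0.18, adjusted p = 0.903). The difference between SPC24 and SPC25 was not tested. Of the 8 centromere and kinetochore genes, 2 fell without the block and 6 with it. NDC80 and NUF2, the other pair of the same complex, were at -0.47 and -0.58. CENPE, the kinesin that moves chromosomes to the spindle equator, had the largest difference of the group at -0.76 (adjusted p = 0.0831). HJURP, the chaperone that loads CENPA, was at -0.16 and did not pass in either fit.

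The chromosomal passenger complex corrects faulty attachments. CDCA8, which encodes its subunit borealin, was at 161, 159.9, 176 and 116 CPM in the controls and at 123, 128, 123 and 79.1 CPM with BARD1 siRNA. Control library 4 was below BARD1 siRNA libraries 1 to 3. The log2 fold change was -0.43 (SE 0.17, adjusted p = 0.202). CDCA8, INCENP and BIRC5 fell with the block, and AURKB, the kinase of the complex, was at -0.18 and did not pass. All 5 checkpoint genes fell with the block and 0 without it, from -0.47 for MAD2L1 to -0.37 for BUB3. MAD2L1 encodes the checkpoint protein that captures CDC20, and was at 95.0, 88.8, 87.5 and 76.6 CPM in the controls and at 66.0, 71.9, 67.5 and 45.1 CPM with BARD1 siRNA. The groups did not overlap, but the margin between control library 4 and BARD1 siRNA library 2 was small.

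Anaphase genes followed the same pattern, with 0 of 5 falling without the block and 5 with it. PTTG1 encodes securin, the inhibitor of separase. It was at 160.5, 161, 161 and 125 CPM in the controls and at 109, 124, 107 and 78.6 CPM with BARD1 siRNA. Controls 1 to 3 hardly differed, and control 4 was just above BARD1 siRNA library 2. PTTG1 had a log2 fold change of -0.54 (SE 0.14, adjusted p = 0.0636). CDC20, the activator of the anaphase-promoting complex, was at -0.54, CDCA3 at -0.48, ESPL1, which is separase, at -0.39 and the ubiquitin-conjugating enzyme UBE2C at -0.28. PTTG1 has near-identical copies, PTTG2 and PTTG3P, which were not tested, so its reads may be split among them.

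Spindle assembly genes had the largest median of any role with more than 1 gene, -0.53. TACC3 (ENSG00000013810, GRCh37 chromosome 4, 1723227 to 1746898), an Aurora A substrate that crosslinks spindle microtubules, was at 143, 164, 161 and 118 CPM in the controls and at 101, 100.1, 96.1 and 75.3 CPM with BARD1 siRNA. The groups did not overlap, and TACC3 fell by 0.65 on the log2 scale (SE 0.13, edgeR adjusted p = 0.0226). ASPM, which organises spindle poles, was at 253, 281, 280 and 152 CPM in the controls and at 148, 157, 139 and 88.3 CPM with BARD1 siRNA. Control library 4 lay inside the range of the BARD1 siRNA libraries. Its log2 fold change was -0.86 (SE 0.22), with an adjusted p of 0.059 by edgeR without the block and 4.80e-07 with it. All 7 fell with the block. DLGAP5, which stabilises microtubules near chromosomes, was at -0.67, and TPX2, which activates Aurora A on the spindle, was at -0.53.

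PRC1, which crosslinks the antiparallel microtubules of the midzone, was at 139, 148, 164 and 112 CPM in the controls and at 100.5, 103, 99.3 and 69.3 CPM with BARD1 siRNA. The groups did not overlap. Its log2 fold change was -0.60 (SE 0.15, adjusted p = 0.0517). ANLN, RACGAP1 and ECT2, which act at the contractile ring, were at -0.27, -0.37 and -0.15, and all 4 midzone and cytokinesis genes fell with the block, ECT2 with an adjusted p of 0.047 by edgeR. Without both libraries numbered 4, ECT2 did not pass. DEPDC1 was at 118, 116, 112 and 90.3 CPM in the controls and at 76.5, 101, 81.9 and 43.4 CPM with BARD1 siRNA. BARD1 siRNA library 2 was above control library 4. DEPDC1 had a log2 fold change of -0.53 (SE 0.22, adjusted p = 0.217) and fell with the block.

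**Figure D3:**
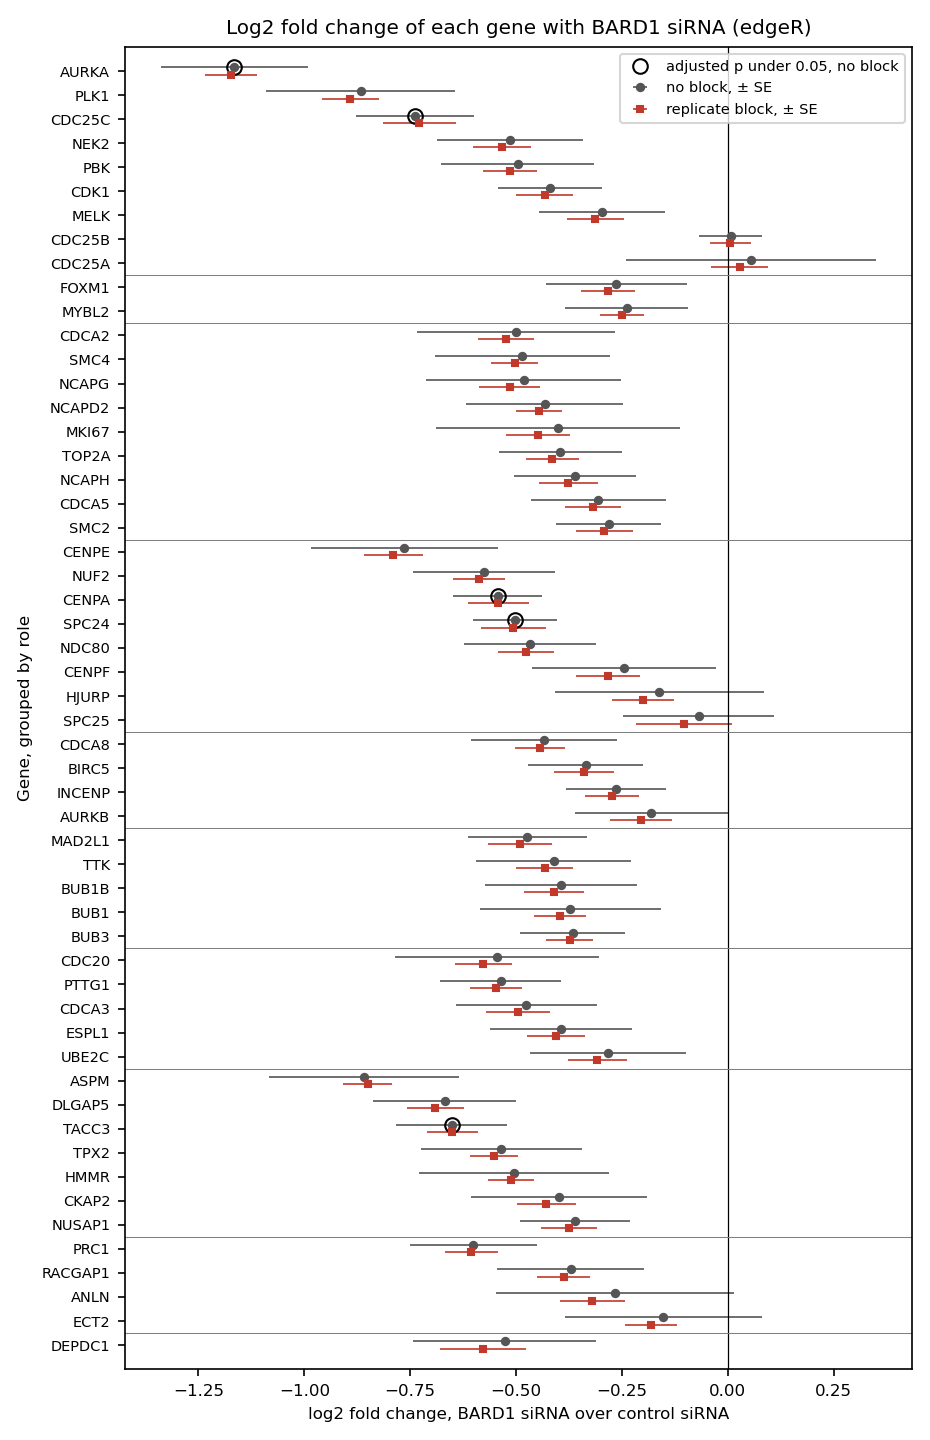
Log2 fold change with its SE (bars) for each member, BARD1 siRNA against control siRNA, with (squares) and without (circles) the replicate block; rings mark the 5 members past the threshold without it. Estimates barely move between the fits while the bars shorten, and CDC25A and CDC25B sit at 0.06 and 0.01.

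The 5 members that fell without the block differed in how far they rested on single libraries. AURKA passed in all 8 fits that left out 1 library, with edgeR adjusted p from 0.000375 to 0.0369. CDC25C, CENPA and SPC24 each missed in 5 of them, and TACC3 in 6, with adjusted p up to 0.0754, 0.0837, 0.0909 and 0.0951. Each miss came from leaving out a library numbered 1 to 3. The count of members that fell was 12 without control library 4, 16 without BARD1 siRNA library 4, and 1 or 2 without any other library. Over all genes the counts that fell moved too, to 548, 1263 and 142 to 194 in the same fits, against 468 with all libraries. Leaving out BARD1 siRNA library 4 alone moved the log2 fold change of 30 members by over 1.5 times and the members' median to -0.28. Leaving out control library 4 alone moved 7 members that far and the median to -0.52, and any other library 3 to 6 members. Among the largest moves, ANLN ran from -0.43 without control library 4 to -0.04 without BARD1 siRNA library 4. CENPF ran from -0.36 to -0.05 and AURKB from -0.28 to -0.02 in the same 2 fits. Without both of these libraries the median was -0.36.

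The libraries numbered 4 were low for these genes in both groups. Control library 4 was the lowest control in 52 members, and BARD1 siRNA library 4 the lowest of its group in 53. The matching shares over all genes were not counted, so these counts alone do not set the members apart. Control library 4 held a median of 73.6% of the mean of controls 1 to 3, from 50.7% for CDC25A to 106% for CDC25B. BARD1 siRNA library 4 held a median of 61.3%, from 41.7% for ANLN to 105% for CDC25B. Compared across groups, control library 4 lay below all of BARD1 siRNA libraries 1 to 3 in 25 members, and the share of all genes with this order was not counted either. Against the rest, with the groups as a term, both libraries numbered 4 were lower in 52 members at an adjusted p under 0.05 by edgeR, beside a background of 24.1% lower, with a median difference of -0.57 against 0.02 over all genes. The mitochondrial share of counts was also highest in these libraries, 3.26% in control library 4 and 4.44% in BARD1 siRNA library 4 against 0.695% to 2.02% in the others. The part of that share in these levels was not tested.

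Taken by replicate number, the members' median log2 difference was -0.39, -0.32, -0.38 and -0.64 in pairs 1 to 4, while that of all genes tested was near 0 in each. The pair numbered 4 was the lowest in 47 members, against 34.5% of all genes. Of the 5 members that fell without the block, pair 4 was the lowest in SPC24 alone. Of the 463 other genes that fell in that fit, pair 4 was the lowest in 48 (10.4%). The drop in BARD1 itself was smallest in that pair, where 36.5% of the control level was left, against 8.02% to 13.3% in the others. CDC25B, CDC25C, AURKA, CENPA, ASPM, TACC3 and PRC1 were the members with a larger drop in another pair. In 50 members all 4 pairs were negative, against 20.9% of all genes, and the exceptions were CDC25A, CDC25B, SPC25 and AURKB. Replicate libraries 1 to 3 were close: the coefficient of variation within them had a median of 4.03% in the controls and 5.24% with BARD1 siRNA.

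**Figure D4:**
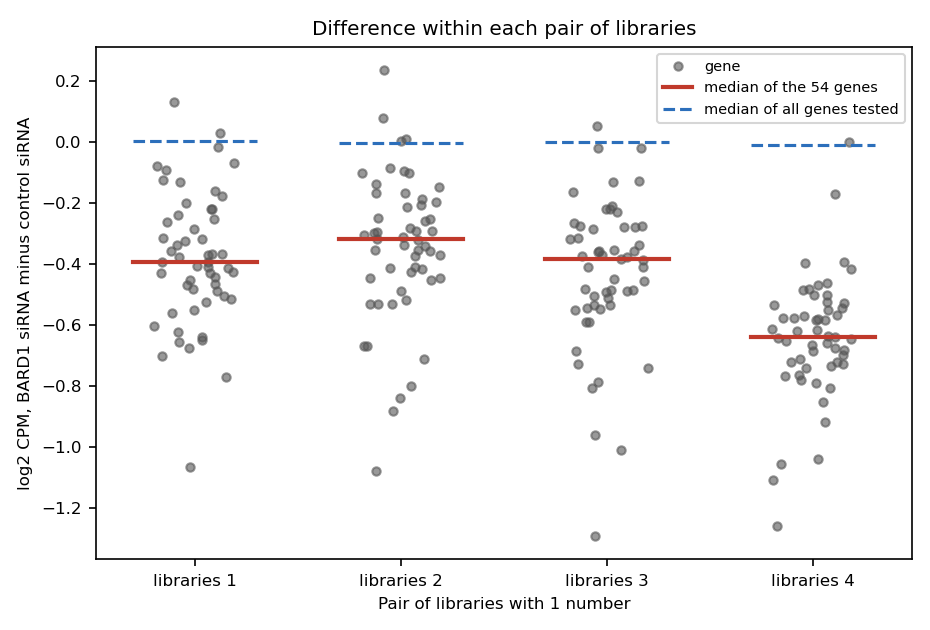
Log2 difference, BARD1 siRNA minus control library of the same number, for each member by pair number. Medians are -0.39, -0.32, -0.38 and -0.64, lowest in the pair numbered 4; the dashed lines, over all genes tested, lie near 0.

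Levels can be compared between genes per length, in the authors' FPKM, which divide each count by gene length and library total. Control means ran from 13.9 FPKM for ESPL1 to 227 ± 41.1 FPKM for CDC20 (SD, n = 4), a 16.4-fold range, with a median of 52.3 FPKM. The median member stood at percentile 91.3 of all genes tested. Next in order came MYBL2 at 187 ± 17.1 FPKM and TOP2A at 177 ± 9.49 FPKM, and at the low end were CDC25C, BIRC5 and CENPE at 14.98, 14.4 and 14.1 FPKM. Of 53 neighbouring pairs in this order, only TOP2A above PTTG1 had separate ranges over the control libraries. The ranges of the other neighbours overlapped, and their order within each library was not compared. AURKA had a mean of 78.4 FPKM in the controls and 35.0 FPKM with BARD1 siRNA.

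**Figure D5:**
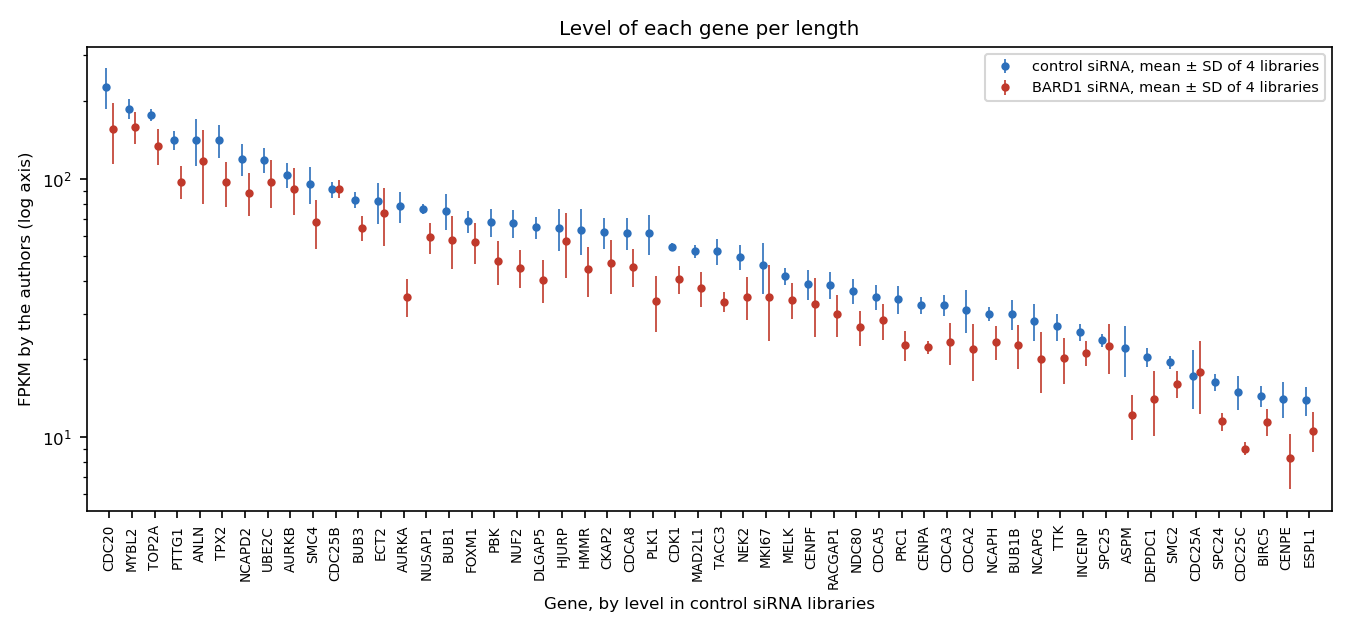
Mean FPKM (log axis) of the 54 members in control and BARD1 siRNA libraries, ordered by the control level, with SD bars. CDC20 is highest at 227 FPKM and ESPL1 lowest at 13.9 FPKM.

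The 3′ UTR was examined for 1 octamer, ATACAGAA, and its heptamers ATACAGA and TACAGAA, because these words went with lower values over all genes in this same comparison. That choice rests on the fold changes, so what follows is a description. In GENCODE version 29 (GRCh38), matched by gene ID, 21.8% of 11911 genes held a heptamer, against 8 of the 54 members (14.8%): CDK1, CDC25C, PLK1, AURKA, SMC2, BUB3, MAD2L1 and ANLN. Only AURKA and MAD2L1 held the octamer. The sites in AURKA, MAD2L1 and CDC25C are shown because these are the members with the octamer and the called gene with a heptamer, with the word in capitals.
AURKA: tgcttgggATACAGAAgaggccat
MAD2L1: gttctgtgATACAGAActcttaaa
CDC25C: ataaacacTACAGAAtgagaggt
The median log2 fold change was -0.45 in the 8 members with a heptamer and -0.41 in the 46 without. Over all genes it was -0.17 with the octamer, -0.04 with a heptamer and 0.01 with none. Without the genes that hold a heptamer, CENPA, SPC24 and TACC3 were the members that fell.

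By promoter word the members hardly differed. The median log2 fold change was -0.43 in the 31 members with a CHR word and -0.40 in the 13 without, and likewise -0.43 in the 29 with CCAAT and -0.40 in the 15 without. CENPA, whose CHR word begins 18 bases before the start, and SPC24, with 3 CCAAT words and no CHR word, both fell. CDC25C and TACC3, whose windows hold neither word, fell as well, though words outside the window searched would be missed. SPC25 has a CHR word 3 bases before the start and did not pass the threshold.

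Beyond the members, 118 further mitotic genes were listed by function, and 117 were tested. Of these, 11 fell and 0 rose without the block, beside a background of 3.22% of all genes lower. Without both libraries numbered 4, 58 fell, beside a background of 15.4% lower. With the block 60 fell and 2 rose, beside a background of 12.6% lower. The 2 that rose were WEE1 and TUBGCP4, of the gamma-tubulin ring complex, the latter named after its value was seen. The lists' median log2 fold change was -0.23. The 36 other kinetochore and centromere genes had a median of -0.36, of which 4 fell without the block and 26 with it. CENPH, of the inner kinetochore, fell by 0.79 (SE 0.09, edgeR adjusted p = 0.00159), NSL1 by 0.78, KNTC1 by 0.46 and ZWINT by 0.39. Of the 17 genes of the anaphase-promoting complex 2 fell, CDC27 by 0.69 and FZR1 by 0.36. Of 27 centrosome genes 3 fell, HAUS1 by 0.60, BORA, an activator of Aurora A, by 0.89 and TUBG1, gamma-tubulin, by 0.36. GTSE1 and PKMYT1, a kinase that inhibits CDK1, fell by 0.50 and 0.58 among 10 genes of CDK1 inhibition and mitotic exit. WEE1, the other kinase that inhibits CDK1, had a log2 fold change of 0.39 (adjusted p = 0.0701), and with the block it rose (edgeR adjusted p = 0.00631).

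None of the 13 cohesin genes, which hold sister chromatids together, and none of the 11 genes of the MuvB and DREAM complex passed without the block. With it 3 of each fell, beside a background of 12.6% of all genes lower, and their medians were -0.08 and -0.18. Of the 11 further genes that fell without the block, NSL1, ZWINT, CDC27, HAUS1 and BORA hold a heptamer of the octamer in the 3′ UTR. Over all genes the share with a heptamer was 21.8%, and some listed genes that did not pass hold one too. Those words were picked by the fold changes, so this is a description. Among the members, 16 overlap another tested gene, and in 7 that gene reached over 10% of the member's own level.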

How the data were processed

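RNA was sequenced from 8 libraries, 4 per group. The deposited table gave whole-number read counts per gene, made by the authors with fastp, HISAT2 (version 2.0.5) and featureCounts on GRCh37 (hg19), per the submitters' processing notes. Neither the annotation release nor the use of strand is given in the sources used here. FPKM values deposited by the authors were the count over gene length and column total, within 5e-12 in relative terms. The log2 fold changes and adjusted p-values deposited by the authors came from a comparison of their own, and the software is not stated. A further 22217 rows named no gene and held 0 reads, and 8 other per-sample columns were not used.

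Counts of all 8 libraries were tested with edgeR 4.0.16 (limma 3.58.1, R 4.3.3): filterByExpr, TMM scaling, the quasi-likelihood F-test, two-sided, Benjamini-Hochberg adjustment over all 14528 genes tested and a threshold of 0.05. CPM are TMM-scaled. Each log2 fold change carries the SE implied by its F statistic. Total counts ran from 24458665 to 36212716, and floors of 3 counts cover counting error only. The biological coefficient of variation was 23.7% without and 10.6% with the replicate block. Alternatives were the block, other scalings, DESeq2 1.42.0, no filter, libraries left out, and genes with a 3′ UTR heptamer left out. The fits were tested on simulated data.

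The replicate numbers come from the labels. Over 10146 genes, deviations from the group means correlated at 0.49, 0.487, 0.596 and 0.856 for the shared numbers 1, 2, 3 and 4. All 4 were above 0.1, and libraries of 1 number were treated as a pair. Different numbers within 1 to 3 gave 0.366 to 0.51, and number 4 with the others gave -0.699 to -0.551, so the pairing rests mostly on number 4.

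The members, the lists of other mitotic and marker genes, and the alternatives were chosen with earlier results of these data known. All members could be named. Levels per library were given for the members past the threshold, for the 3 largest and 3 smallest absolute log2 fold changes, and for the smallest p in each role. Of other mitotic lists, up to 4 genes each with the smallest p could be named among those past the threshold with or without the block. Promoter and 3′ UTR sequences (GRCh38) were matched by symbol or gene ID, and no coordinates were carried between builds. The values of 1 gene are not reported here.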

Additional observations from a re-analysis of the deposited data

Results flagged for a closer look

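In each group the gap between the lowest or highest library and its nearest neighbour was compared with the group's range. Of 110 groups of 4 libraries (the 54 members and BARD1, in both groups), 32 had a library that stood apart, 16 control and 16 BARD1 siRNA, where chance gives about 1 in 20, or 5.5. In all 32 it was the library numbered 4, as the lowest. The genes share these libraries, so the 32 are not independent. The share over all genes was not counted. Of 14528 genes tested, 3506 were lower and 3206 higher in the libraries numbered 4 (edgeR adjusted p under 0.05). The excess over 5.5 is therefore not shown to be particular to these genes.

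In control library 4 these genes stood apart, in CPM. Among entry and chromosome genes, CDK1 was at 95.4, CDC25A at 38.1, MYBL2 at 405, NCAPD2 at 495, NCAPH at 76.2 and CDCA2 at 79.2. Among kinetochore, checkpoint and anaphase genes, NUF2 was at 103, BUB1 at 192, UBE2C at 136 and PTTG1 at 125. Among spindle and cytokinesis genes, NUSAP1 was at 163, DLGAP5 at 157, HMMR at 130.0, ANLN at 444 and ECT2 at 248. BARD1 itself was at 20.8 there.

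In BARD1 siRNA library 4, CDC25A was at 33.8 CPM, PLK1 at 83.6, FOXM1 at 135, MYBL2 at 308, NCAPH at 49.6, CDCA2 at 48.0 and CDCA5 at 51.6. HJURP was at 95.8 CPM, SPC25 at 19.1, CDCA8 at 79.1, BUB1 at 125 and CDC20 at 156. TPX2 was at 231 CPM, CKAP2 at 103, PRC1 at 69.3 and ECT2 at 186. CDC25A, MYBL2, NCAPH, CDCA2, BUB1 and ECT2 stood apart in both groups.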

How the results depend on the processing

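BARD1 stayed lower and past the threshold in every alternative run. The members' median kept its sign throughout, from -0.52 to -0.28 with 1 library left out, and 0 members rose in any fit. Counts of genes past the threshold moved more. With the replicate block, which follows the pairing of numbers, 3430 genes changed against 733, and 49 members against 5 and 60 other mitotic genes against 11 were lower. With DESeq2 the counts were 1530, 14 and 22. Without both libraries numbered 4 they were 4428, 48 and 58, and with the block as well, an alternative chosen after seeing the data, 5002, 49 and 63. Without the 2593 tested genes holding a 3′ UTR heptamer they were 415, 3 and 6. Those words were picked by the fold changes, so these counts are a description. Upper-quartile scaling and no filter each gave 11 members lower. Upper-quartile scaling gave 413 genes higher and 470 lower, against 265 and 468. With 1 library left out, 178 to 2506 genes changed, and 1 to 16 members and 2 to 19 other mitotic genes were lower. In 5 members the direction could turn, none of them past the threshold in the main fit. ECT2, which is among them, was past it with the replicate block (edgeR adjusted p = 0.047). With 1 library left out CDC25A ran from -0.14 to 0.28, CDC25B from -0.013 to 0.032, ECT2 from -0.30 to 0.039, HJURP from -0.30 to 0.044 and SPC25 from -0.15 to 0.10. SPC25 was at 0.065 without both libraries numbered 4 and at 0.067 with the block as well. The cause of these moves was not tested. Depth limits none of the members, whose lowest level was far above the floor. The number of libraries, 4 per group with the one numbered 4 standing apart in each, limits the precision.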
